A study of Mus musculus with 12 samples.

Results

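Axl, Crim1, Asap1, Rbms3, Ccdc80 and Gadd45a are 6 genes that have been reported as targets of YAP and TAZ and that lie outside the CCN family of matricellular genes. They were picked by gene symbol, with earlier results of these data known, and they are 6 of the 54100 genes in the deposited count table. Their shares set beside those of all genes are therefore descriptions. All 6 had enough counts to be tested, within a set of 8161 tested genes. RNA had been measured in 12 libraries of fibro-adipogenic progenitors (FAPs), mesenchymal cells of the muscle interstitium sorted for Pdgfra, with 1000 cells per tube and a low-input method that tags the 3′ ends of transcripts. The cells came from the plantaris, a calf muscle that was either overloaded or sham-operated. Control mice carried the Pdgfra-CreERT2 driver alone, and conditional double knockout mice (cdKO) carried the same driver with Yap1 and Taz both floxed, where Taz is listed as Wwtr1, so all 4 groups shared the driver. Each genotype was sampled under sham surgery and under overload, with 3 libraries in each of the 4 groups. The driver acts in cells that express Pdgfra, the marker used for the sort. The strain, the age, the induction of the recombinase, the time after surgery, which exons were floxed and whether animals were pooled were not given in the sources used here. Nothing states that the 3 libraries of a group came from separate animals. A p-value therefore measures the spread among these libraries alone, and that spread may be technical.

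YAP and TAZ are co-activators without a DNA-binding domain of their own, and they reach chromatin mainly through the TEAD transcription factors. The kinases of the Hippo pathway hold them in the cytoplasm, and stiff matrix, stretch and cell spreading favour their entry into the nucleus. In fibroblasts they are known for driving genes of matrix production, adhesion and growth. The 6 genes cover several roles: Axl is a receptor tyrosine kinase, Crim1 a transmembrane protein that binds bone morphogenetic proteins, Asap1 an Arf GTPase-activating protein, Rbms3 an RNA-binding protein, Ccdc80 a secreted matrix protein and Gadd45a a stress-response protein.

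TEAD factors bind the letters GGAATG, and these were searched for on both strands in the 250 bases before each RefSeq start site. RefSeq promoter windows (build GRCm38.p6) were at hand for 4 of the 6 genes, namely Axl, Crim1, Rbms3 and Gadd45a. The windows of the 3 genes that fell with overload in control muscle are shown, 5′ to 3′ on the gene's own strand with the motif in capitals. They are Axl at chr7:25788734-25788983 (minus strand), Crim1 at chr17:78199998-78200247 (plus strand) and Gadd45a at chr6:67037458-67037657 (minus strand, with the bases inside the annotated gene left out).
Axl: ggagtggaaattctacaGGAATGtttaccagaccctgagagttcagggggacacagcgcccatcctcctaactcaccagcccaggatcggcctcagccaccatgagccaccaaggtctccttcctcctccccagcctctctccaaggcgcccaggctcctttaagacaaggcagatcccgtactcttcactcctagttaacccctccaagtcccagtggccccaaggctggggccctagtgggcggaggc
Crim1: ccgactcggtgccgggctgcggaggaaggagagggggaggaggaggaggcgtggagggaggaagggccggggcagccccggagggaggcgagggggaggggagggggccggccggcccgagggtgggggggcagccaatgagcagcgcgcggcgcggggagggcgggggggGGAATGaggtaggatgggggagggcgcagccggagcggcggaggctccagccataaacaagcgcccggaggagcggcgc
Gadd45a: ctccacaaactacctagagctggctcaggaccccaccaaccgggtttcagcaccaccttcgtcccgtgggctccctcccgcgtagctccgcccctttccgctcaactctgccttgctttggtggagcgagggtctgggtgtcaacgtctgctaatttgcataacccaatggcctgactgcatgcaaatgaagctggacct
The Axl window held 1 match, 233 bases before the start, and the Crim1 window held 1, 79 bases before the start. No match was present in the Gadd45a window or in either of the 2 windows of Rbms3. Of all 32851 promoter windows of this length, 12.6% held the motif. GC content was 77.6% in the Crim1 window, 60.0% for Axl and 59.2% for Gadd45a, against a median of 52.4% over all windows. A match of 6 letters describes the sequence and does not show binding, and the absence of one says only that these letters are not in this window.

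The genes lie on separate chromosomes of GRCm38: Axl at chr7:25757273-25788705, Crim1 at chr17:78200248-78376592, Asap1 at chr15:64086857-64382919, Rbms3 at chr9:116572746-117629913, Ccdc80 at chr16:45093402-45128077 and Gadd45a at chr6:67035096-67037457. Exons of Crim1 overlap exons of Fez2 on the opposite strand, and exons of Gadd45a overlap the transcript E230016M11Rik on the opposite strand. Those overlapping genes had 106 and 39 counts in all 12 libraries together, against 324 for Crim1 and 1265 for Gadd45a. The strand setting of the counting was not given in the sources used here, so reads of these overlapping pairs cannot be told apart. Axl and Ccdc80 overlap no other annotated gene, and the genes that overlap Asap1 and Rbms3 share no exon with them.

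Library totals ran from 336437 to 1564581 counts, so 3 counts corresponded to between 1.95 and 9.72 CPM (a gene's counts scaled to a common library total with TMM factors). Levels below are CPM for the same gene across libraries and were not scaled by length, so they do not rank genes against each other. The labels were checked on the targeted genes. Wwtr1 stood at 124, 108 and 126 CPM in control sham, 174, 125 and 125 in control overload, 36.7, 40.6 and 27.1 in cdKO sham and 20.1, 18.2 and 22.5 in cdKO overload, and it fell in cdKO cells by 2.26 ± 0.19 (SE) on the log2 scale over both loads (adjusted p = 7.92e-08). Yap1 stood at 108, 91.6 and 94.0 CPM in control sham, 91.3, 47.4 and 39.7 in control overload, 71.5, 56.2 and 65.7 in cdKO sham and 40.2, 22.1 and 33.7 in cdKO overload, and its log2 difference of -0.73 ± 0.22 did not pass (adjusted p = 0.732). Since 3′ tags need not lie in the deleted exons, these levels do not measure the loss of protein. On the first principal component, which held 46.4% of the variance, control overload replicate 1 (15.8) and cdKO overload replicate 2 (7.39) lay nearer to the sham libraries (-39.9 to -28.7) than the other 4 overloaded libraries (32.6 to 61.1). Control overload replicates 2 and 3 had summed Y-linked levels of 72.7 and 88.7 CPM, against 131 to 337 CPM in the other 10 libraries.

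With overload in control cells, 4 of the 6 genes passed the test: Ccdc80 rose, and Axl, Crim1 and Gadd45a fell. Over all genes tested, 21.7% passed in this comparison, 10.6% rising and 11.0% falling. In cdKO cells 1 of the 6 passed with overload (Ccdc80, which rose), against 13.0% of all genes (6.37% rising and 6.68% falling), so that the share of these genes was close to the background. The shares over all genes are also the background for the gene lists described below. Between cdKO and control cells 0 of the 6 passed in sham muscle, in overloaded muscle or over both loads, where 0.0123%, 0.0368% and 0.0123% of all genes passed. At an unadjusted p under 0.05, 0 of the 6 were under it in sham muscle, 1 (Gadd45a) in overloaded muscle and 2 (Gadd45a and Ccdc80) over both loads, against 4.09%, 6.97% and 5.32% of all genes. The test of the difference between the overload responses of the genotypes (the interaction) called 0 of the 6 genes and 0% of all genes, with 427 of 8161 genes (5.23%) at an unadjusted p under 0.05. Overloaded and sham libraries did not overlap for 4 of the 6 genes in control cells and for 2 of the 6 in cdKO cells, against 36.9% and 30.0% of all genes. The median log2 difference of the 6 genes was -0.66 for overload in control cells and -0.38 in cdKO cells, beside -0.05 and -0.02 for all genes tested. It was 0.12 for cdKO against control in sham muscle and 0.29 in overloaded muscle, beside 0.01 and 0.03 for all genes. These comparisons share groups: both overload contrasts and both genotype contrasts are drawn from the same 12 libraries.

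**Figure D1:**
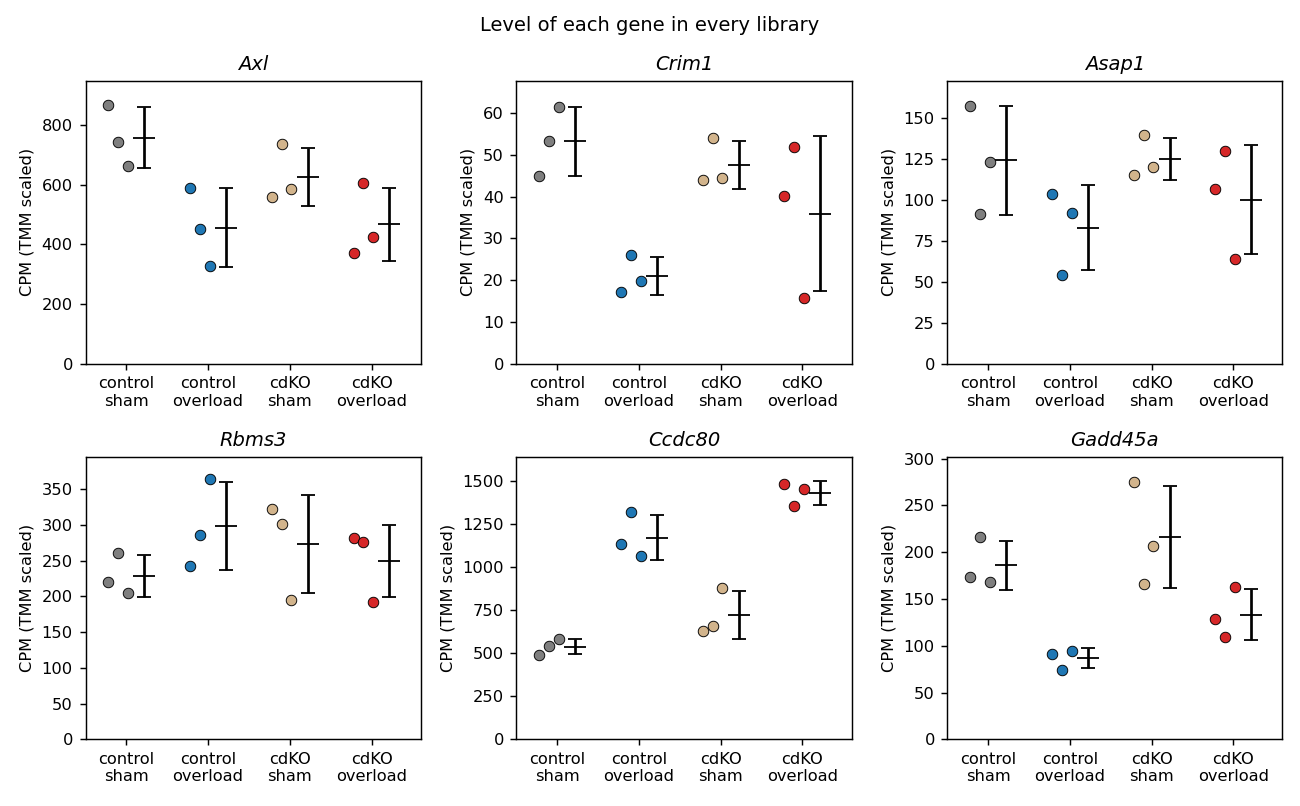
Level of each of the 6 genes in CPM (linear axis from 0) in the 4 groups. Circles are single libraries (replicates 1 to 3 from left to right in each group) and the bars beside them the mean with 1 SD (n = 3). Ccdc80 is higher in all 6 overloaded libraries than in all 6 sham libraries, and Crim1 spreads most in cdKO overload, from 15.7 to 52.0 CPM.

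Axl encodes a receptor of the TAM family, whose ligand Gas6 bridges it to phosphatidylserine on dying cells. Its level was 867, 742 and 664 CPM in the 3 control sham libraries and 589, 453 and 327 CPM in control overload. In cdKO cells it was 557, 737 and 586 CPM in sham and 372, 606 and 424 CPM in overloaded muscle. All 3 overloaded control libraries lay below all 3 sham control libraries, whereas the cdKO groups overlapped, with overload replicate 2 above 2 of the 3 sham libraries. Axl fell with overload in control cells by 0.74 ± 0.26 on the log2 scale, to 0.601 of the sham level (95% interval 0.413 to 0.873, adjusted p = 0.0457). This call sat at the threshold. It held under 11 of 24 other settings, with adjusted p between 0.00377 and 0.408, and it was lost in 9 of the 12 fits that left out 1 library. Leaving out any 1 of the other control libraries lost it, with adjusted p of 0.0815 to 0.234, but leaving out control overload replicate 1, the highest of its group, gave -0.90 (adjusted p = 0.0167). In cdKO cells the overload difference of -0.42 ± 0.26 did not pass (adjusted p = 0.311), and the interaction was 0.31 ± 0.37 (95% interval -0.45 to 1.07), so that the responses of the genotypes were not shown to differ.

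Between genotypes Axl was close to level in the overloaded groups, with means of 456 ± 131 CPM in control and 468 ± 123 CPM in cdKO (SD, n = 3). The fitted ratio of cdKO to control was 1.03 in overloaded muscle (95% interval 0.708 to 1.49) and 0.828 in sham muscle (0.570 to 1.20). From low to high the group means ran control overload, cdKO overload, cdKO sham and control sham, and each neighbour in that order overlapped the next. Of the ligands and the other TAM receptors, 2 of 4 genes were tested, since Tyro3 and Mertk had too few counts. Gas6, the main ligand, fell with overload in control cells by 1.21 ± 0.31 (adjusted p = 0.00747) and in cdKO cells by 1.62 ± 0.30 (adjusted p = 9.62e-04). The call held in cdKO cells under all 24 other settings and in control cells under 21 (adjusted p up to 0.0735). The settings that lost it included leaving out control overload replicate 2 or replicate 3. The level of Gas6 was 122, 154 and 152 CPM in control sham, 99.9, 49.98 and 42.0 in control overload, 207, 311 and 193 in cdKO sham and 58.7, 111 and 64.0 in cdKO overload. All 3 cdKO sham libraries thus lay above all 3 control sham libraries, but the log2 difference of 0.74 ± 0.30 did not pass (adjusted p = 0.999). Pros1, the other TAM family ligand of the list, had log2 overload differences of -0.00 ± 0.25 in control and 0.23 ± 0.25 in cdKO cells, and neither passed.

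Crim1 carries cysteine-rich repeats that hold bone morphogenetic proteins at the cell surface. It was the least counted of the 6, with 10 to 52 counts per library. Its level was 45.0, 53.3 and 61.6 CPM in control sham and 17.2, 26.0 and 19.8 CPM in control overload, with no overlap between the groups. Crim1 fell with overload in control cells by 1.28 ± 0.36, to 0.412 of the sham level (95% interval 0.246 to 0.691, adjusted p = 0.0124). The call was lost without control sham replicate 2 (-1.22, adjusted p = 0.0554), control sham replicate 3 (-1.13, 0.0583) or control overload replicate 3 (-1.18, 0.0565), and it held under 19 of 24 other settings. In cdKO cells the sham libraries stood at 44.0, 54.1 and 44.5 CPM and the overloaded ones at 40.2, 52.0 and 15.7 CPM. Only cdKO overload replicate 3, with 14 counts, was low there, while replicate 2 lay within the sham range and replicate 1 just below it. The overload difference in cdKO cells was -0.43 ± 0.34 and did not pass (adjusted p = 0.448). Without replicate 3 of cdKO overload it was -0.05, and with counts thinned to the smallest library it was -0.84.

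Set against control in overloaded muscle, Crim1 was 1.63 times as high in cdKO cells (95% interval 0.979 to 2.71), but this did not pass (adjusted p = 0.738). Without control overload replicate 1 and cdKO overload replicate 2, the 2 overloaded libraries nearest to sham, the log2 difference went from 0.71 to 0.20. The interaction of 0.84 ± 0.50 was the highest of the 6 genes and did not pass (adjusted p = 0.940). It was 0.34 without those 2 libraries and 1.47 with the Y-linked level as a covariate. In sham muscle the ratio was 0.908 (0.554 to 1.49). Each neighbour overlapped the next in the order of group means, which was control overload, cdKO overload, cdKO sham and control sham, as for Axl. Among 9 bone morphogenetic protein ligands and receptors, 6 were tested, and 2 fell and 0 rose with overload in control cells. Bmp2, a ligand, stood at 417, 410 and 279 CPM in control sham and 115, 81.8 and 72.4 in control overload and fell by 2.06 ± 0.26 (adjusted p = 3.73e-06), and Bmp4, another ligand, fell by 1.53 ± 0.39 (adjusted p = 0.00976). Bmp2 held under all 24 other settings and Bmp4 under 20 (adjusted p up to 0.114). The settings that lost Bmp4 included leaving out control sham replicate 2 or control overload replicate 2. In cdKO cells Bmp2 fell by 0.75 ± 0.24 (adjusted p = 0.0442) and Bmp7 by 2.84 ± 0.79 (adjusted p = 0.0184), and the receptor Acvr1 rose by 0.75 ± 0.22 (adjusted p = 0.0276). These cdKO calls were less firm, holding under 12 of 24 other settings for Bmp2 (adjusted p up to 0.469), 18 of 23 for Bmp7 (up to 0.0862) and 18 of 24 for Acvr1 (up to 0.225), and cdKO sham replicate 1 and cdKO overload replicate 1 were among the libraries whose omission ended all 3. Bmp2 was 167, 187 and 173 CPM in cdKO overload, above all 3 control overload libraries, and neither that log2 difference of 0.98 ± 0.25 (adjusted p = 0.304) nor its interaction of 1.31 ± 0.35 (adjusted p = 0.438) passed.

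Asap1 stimulates GTP hydrolysis by Arf proteins and takes part in the turnover of focal adhesions. It stood at 158, 91.6 and 123 CPM in control sham, 103, 53.9 and 92.2 in control overload, 115, 140 and 120 in cdKO sham and 107, 130 and 64.0 in cdKO overload. The 3 control overload libraries lay below the 3 cdKO sham libraries, and every other pair of groups overlapped. The overload difference was -0.59 ± 0.30 in control cells (adjusted p = 0.154) and -0.33 ± 0.29 in cdKO cells (adjusted p = 0.496), and neither passed under any of 24 other settings. The ratio of cdKO to control was 1.02 in sham muscle (95% interval 0.675 to 1.55) and 1.23 in overloaded muscle (0.812 to 1.85). Of 10 Arf proteins, relatives of Asap1 and focal adhesion partners, 8 were tested. In control cells 1 of these rose with overload and 0 fell: Arf5, a small GTPase of the Golgi, went from 254, 237 and 301 CPM to 353, 439 and 616 CPM (log2 change 0.84 ± 0.26, adjusted p = 0.0212). That call held under 20 of 24 other settings (adjusted p up to 0.214). Those that lost it included leaving out control sham replicate 1, control sham replicate 2 or control overload replicate 3. In cdKO cells 0 of the 8 passed with overload.

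Rbms3 binds single-stranded nucleic acid and belongs to a family first known from the regulation of Myc. Its level was 221, 261 and 204 CPM in control sham and 243, 286 and 364 in control overload. In cdKO cells it was 323, 301 and 195 CPM in sham and 281, 276 and 192 in overloaded muscle. Replicate 3 was the lowest library in both cdKO groups, and all neighbouring groups overlapped. No comparison passed: the overload difference was 0.38 ± 0.25 in control cells (adjusted p = 0.304) and -0.13 ± 0.25 in cdKO cells (adjusted p = 0.793), and the interaction was -0.51 ± 0.36 (adjusted p = 0.940). Over both loads the ratio of cdKO to control was 0.997, with a 95% interval of 0.773 to 1.29. Rbms3 was thus the gene of the 6 for which the interval of the genotype difference was centred closest to 1. Its relatives did not pass with overload in control cells either, at 0.68 ± 0.33 for Rbms2 and -0.37 ± 0.23 for Rbms1 (adjusted p = 0.148 and 0.262).

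Ccdc80 is a secreted protein that binds matrix and has been tied to adipocyte differentiation. It stood at 493, 541 and 583 CPM in control sham and 1134, 1322 and 1066 in control overload, and at 629, 658 and 881 CPM in cdKO sham and 1486, 1356 and 1455 in cdKO overload. Every overloaded library lay above every sham library of either genotype. Ccdc80 rose with overload 2.18 times in control cells (95% interval 1.55 to 3.07, log2 change 1.12 ± 0.24, adjusted p = 0.00144) and 1.98 times in cdKO cells (1.41 to 2.78, log2 change 0.99 ± 0.24, adjusted p = 0.00707). The rise in control cells held under all 24 other settings, and that in cdKO cells under 23 of 24, being lost without cdKO sham replicate 1 (0.89, adjusted p = 0.0512). The interaction was -0.14 ± 0.33, with a 95% interval of -0.82 to 0.55.

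Under both loads the 3 cdKO libraries of Ccdc80 also lay above the 3 control libraries, so that no neighbours overlapped in the order control sham, cdKO sham, control overload and cdKO overload. Such a separation upwards was found for 5.44% of all genes in sham and 5.38% in overloaded muscle. The group means were 539 ± 45.0, 723 ± 138, 1174 ± 133 and 1432 ± 68.0 CPM (SD, n = 3) in that order. The ratio of cdKO to control was 1.34 in sham muscle (95% interval 0.954 to 1.88) and 1.22 in overloaded muscle (0.874 to 1.70). Neither passed (adjusted p = 0.999 in sham and 0.876 in overload), nor did the ratio of 1.28 over both loads (1.01 to 1.62, adjusted p = 0.923). A genotype difference of Ccdc80 was therefore not shown over all genes tested.

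Gadd45a answers DNA damage and other stress and is a target of p53. Its level was 173, 216 and 168 CPM in control sham and 91.3, 74.6 and 94.6 in control overload, and 275, 167 and 207 in cdKO sham and 128, 109 and 163 in cdKO overload. Overloaded libraries lay below sham libraries in each genotype with no overlap, and cdKO overload lay above control overload with no overlap. In control cells Gadd45a fell with overload by 1.12 ± 0.25, to 0.461 of the sham level (95% interval 0.322 to 0.660, adjusted p = 0.00234). The call held under 23 of 24 other settings. With the Y-linked level as a covariate it became -0.80 (adjusted p = 0.145). In cdKO cells the overload difference was -0.68 ± 0.24, or 0.622 of the sham level (0.440 to 0.880), and did not pass (adjusted p = 0.0626), though it was past the threshold under 6 of 24 other settings. Among these, thinning every library to the smallest total gave -1.08 (adjusted p = 0.00485), beside -0.96 (0.00894) in control cells, and leaving out cdKO sham replicate 2 gave -0.87 (0.0380).

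In overloaded muscle Gadd45a was 1.55 times as high in cdKO as in control cells (95% interval 1.09 to 2.21), with an unadjusted p of 0.0178 that did not pass over all genes (adjusted p = 0.619). A separation of the libraries upwards, as for Gadd45a, was seen for 5.38% of all genes there. With the Y-linked level as a covariate the log2 difference went from 0.63 to 0.30, and with thinned counts to 0.22. In sham muscle the ratio was 1.15 (0.810 to 1.63), and the interaction was 0.43 ± 0.35 (adjusted p = 0.956). With thinned counts the interaction had the other sign, at -0.12. Of 10 relatives of Gadd45a and p53 response genes, 8 were tested, with 0 rising and 2 falling with overload in control cells and 0 rising and 3 falling in cdKO cells. Cdkn1a, the cell cycle inhibitor p21, fell from 2206 ± 196 to 652 ± 253 CPM in control cells (-1.76 ± 0.28, adjusted p = 6.85e-05) and from 1942 ± 116 to 754 ± 193 CPM in cdKO cells (-1.36 ± 0.28, adjusted p = 0.00177). Gadd45g, a close relative, fell by 1.66 ± 0.37 in control cells (adjusted p = 0.00280) and by 1.35 ± 0.36 in cdKO cells (adjusted p = 0.0168). Gadd45b, the remaining relative, fell by 1.22 ± 0.28 in cdKO cells (adjusted p = 0.00531), while its difference of -0.49 ± 0.29 in control cells did not pass. Cdkn1a held in both genotypes under all 24 other settings, as did Gadd45g in control cells. In cdKO cells Gadd45g held under 20 of 24 other settings (adjusted p up to 0.0943). It was lost, among others, without cdKO sham replicate 2, cdKO overload replicate 1 or cdKO overload replicate 3. Gadd45b held there under 23 of 24 and was lost without cdKO overload replicate 3 (adjusted p = 0.0572).

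**Figure D2:**
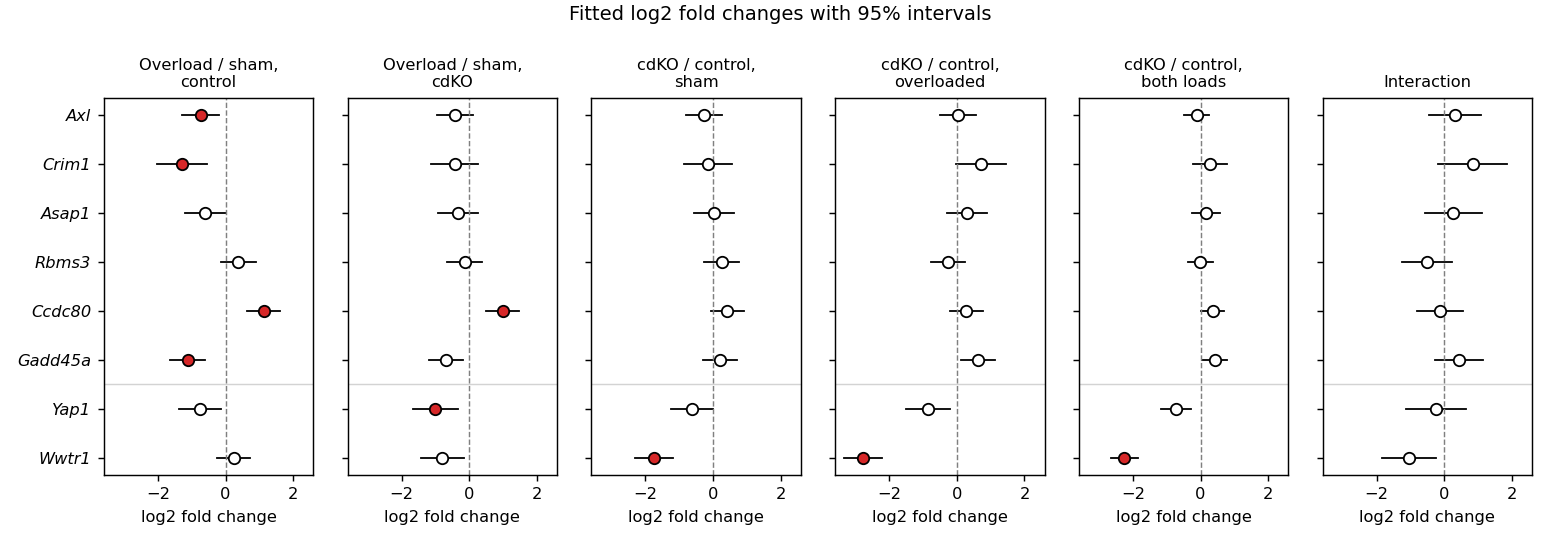
Log2 fold changes (points) with 95% intervals (lines) of the 6 genes, and of the targeted genes Yap1 and Wwtr1 under the grey line, in the 6 comparisons. Filled red points passed at an adjusted p under 0.05. Among the 6 genes red points stand only in the panels of overload against sham, and the intervals of Ccdc80 lie above 0 in both of these panels.

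The 6 were set beside the other genes of a 22-gene list of YAP/TAZ targets, called the signature here, which was written from general knowledge and not checked against a published list. Of 16 others, 10 were tested, and 6 had too few counts, among them Ankrd1 with at most 9 counts in a library. With overload in control cells 1 of the 10 rose and 1 fell, in cdKO cells 1 rose and 2 fell, and 0 of the 10 passed between genotypes or for the interaction. Over all genes tested, 21.7% passed with overload in control cells and 13.0% in cdKO cells. Ccn2, a matricellular growth factor gene, rose by 2.31 ± 0.57 in control cells (adjusted p = 0.0129) and 2.22 ± 0.57 in cdKO cells (adjusted p = 0.0251). F3, which encodes tissue factor, fell by 1.88 ± 0.33 in control cells (adjusted p = 2.31e-04) and by 1.32 ± 0.31 in cdKO cells (adjusted p = 0.00654), in both under all 24 other settings. Amotl2, a Hippo pathway scaffold gene, fell with overload in cdKO cells by 1.40 ± 0.39 (adjusted p = 0.0176). That call held under 18 of 24 other settings (adjusted p up to 0.133). It was lost, among others, without cdKO sham replicate 2 or 3 or cdKO overload replicate 3. The rise of Ccn2 in control cells ran from 0.95, with the Y-linked level as a covariate (adjusted p = 0.411), to 2.79 under 24 other settings. Of these 21 passed, and those that did not included leaving out control sham replicate 1. In cdKO cells the rise of Ccn2 passed under 18 of 24 (adjusted p up to 0.136). It was lost there without any 1 of the cdKO libraries but cdKO sham replicate 1. Members of the signature thus passed in opposite directions with load, as Ccdc80 and the 3 falling genes did. So did all genes tested, of which 10.6% rose and 11.0% fell in control cells.

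Over both loads the median log2 difference between cdKO and control was 0.22 for the 6 genes and -0.14 for the 10 others, beside 0.03 for all genes. Amotl2 had the smallest p of these 16. It stood at 74.3, 46.5 and 45.4 CPM in control sham, 48.2, 33.8 and 40.9 in control overload, 22, 39.6 and 42.5 in cdKO sham and 18.5, 14.3 and 7.86 in cdKO overload. Under each load the highest cdKO library was below the lowest control library, a separation downwards that 4.45% of all genes showed in sham and 5.31% in overloaded muscle, with a log2 difference of -1.13 ± 0.25 over both loads that did not pass (adjusted p = 0.249). Igfbp3, which encodes a secreted carrier of insulin-like growth factors, stood at 25.8, 75.3 and 58.4 CPM in control overload and 12.4, 14.3 and 23.6 in cdKO overload, and its difference of -1.68 ± 0.41 did not pass (adjusted p = 0.294). That difference ran from -2.04 to -0.44 under 24 other settings, of which 3 passed, and the value nearest to 0 came with the Y-linked level as a covariate. For comparison, the log2 differences of the 6 genes in overloaded muscle ran from -0.26 to 0.71.

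**Figure D3:**
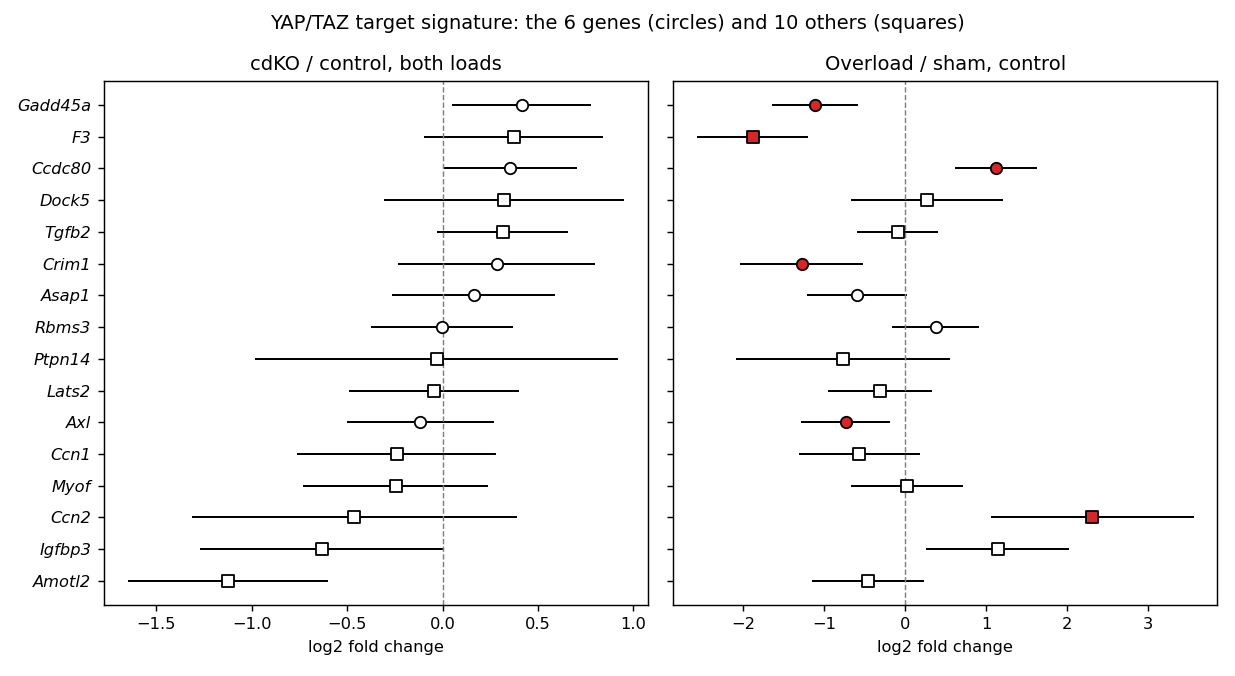
Log2 fold changes with 95% intervals of the 6 genes (circles) and the 10 other tested genes of the signature (squares), for cdKO against control over both loads (left) and overload against sham in control cells (right). Genes are ordered by the left panel, and red marks passed at an adjusted p under 0.05. No mark is red on the left, where Gadd45a stands highest (0.42) and Amotl2 lowest (-1.13).

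Of 18 genes of the Hippo pathway and its TEAD factors, 15 were tested. In control cells 2 rose with overload, Tead1 (1.01 ± 0.26, adjusted p = 0.00602), which encodes a TEAD factor, and Vgll3 (1.16 ± 0.37, adjusted p = 0.0259), which encodes a TEAD cofactor. Amotl1, a scaffold that binds YAP, fell by 1.01 ± 0.26 (adjusted p = 0.00672). In cdKO cells 0 rose and 1 fell, again Amotl1 (-1.21 ± 0.25, adjusted p = 0.00236), while Tead1 stood just outside the threshold at 0.75 ± 0.25 (adjusted p = 0.0505). Over all genes tested, 21.7% passed with overload in control cells and 13.0% in cdKO cells, so this list did not stand out from the background. Tead1 held in control cells under 23 of 24 other settings and Amotl1 in cdKO cells under all 24. In control cells Vgll3 held under 17 of 24 other settings (adjusted p up to 0.238) and Amotl1 under 20 (up to 0.121). The settings that lost Vgll3 included leaving out sham replicate 1, sham replicate 2 or overload replicate 2. Those that lost Amotl1 included leaving out sham replicate 1 or overload replicate 2. Between genotypes 0 of the 15 passed. The median log2 difference of the 15 genes was -0.03 for overload in control cells and -0.18 for cdKO against control in overloaded muscle.

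All 10 progenitor markers were present in every group, and Pdgfra stood at 259 to 900 CPM. With overload in control cells 2 of the 10 rose and 6 fell, with a median log2 difference of -0.98, and in cdKO cells 2 rose and 4 fell, with a median of -0.80, beside -0.05 and -0.02 for all genes. The summed level of the 10 did not fall. It was 45521 to 53971 CPM in control sham, 47122 to 67215 in control overload, 46113 to 52969 in cdKO sham and 67634 to 71032 in cdKO overload. Those that rose were the collagen genes Col1a1 and Col3a1, and Dcn, a matrix proteoglycan gene, fell by 2.32 ± 0.30 in control cells (adjusted p = 7.42e-06). Pdgfra itself, the marker of the sort, fell in cdKO cells by 1.09 ± 0.26 (adjusted p = 0.00620), and its difference of -0.48 ± 0.26 in control cells did not pass (adjusted p = 0.186). The fall of Pdgfra in cdKO cells held under 22 of 24 other settings (adjusted p up to 0.0595). Those that lost it included leaving out cdKO overload replicate 3. Axl, Crim1 and Gadd45a thus moved in the same direction as most of these markers in control cells, and the part of these markers in their falls was not tested. Other gene lists also moved with load. Of 22 immediate early genes, which respond to cell dissociation as well as to signals in tissue, 1 rose and 16 fell with overload in control cells and 1 rose and 10 fell in cdKO cells. Their summed level was 14485 to 17085 CPM in control sham, 7197 to 9314 in control overload, 15248 to 18708 in cdKO sham and 7555 to 10735 in cdKO overload. The 3 falling genes moved in the same direction as this list too, and its part in their changes was not tested. Of 6 tenocyte markers, 1 of 3 tested rose, Thbs4 (4.45 ± 0.42 in control cells, adjusted p = 3.79e-07), and the summed level went from 107 to 381 CPM in control sham to 2362 to 5117 in control overload and from 209 to 480 CPM in cdKO sham to 3714 to 4036 in cdKO overload. The other 2 tested markers did not pass, with differences in control cells of -0.57 ± 1.36 for Kera and -0.32 ± 1.41 for Fmod, so that the sum follows Thbs4 while the median of the 3 was -0.32 in control and 0.62 in cdKO cells. None of the 6 markers was at 0 in a whole group. The part of this list in the rise of Ccdc80 was not tested. In bulk libraries, fewer cells of a type and less RNA per cell cannot be told apart.

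Of 9 endothelial markers, 6 were tested and 1 fell with overload in each genotype, with sums of 138 to 254 CPM in control sham, 20.1 to 169 in control overload, 97.2 to 278 in cdKO sham and 49.4 to 76.7 in cdKO overload, where Cldn5 was at 0. Of 8 pericyte and smooth muscle markers, 6 were tested and 1 fell in each genotype, with sums of 169 to 182, 94.1 to 172, 163 to 224 and 99.9 to 124 CPM in the same order. Macrophage and leukocyte markers summed to at most 63.7 CPM in any library, and Lyz2, C1qa and C1qb, which define macrophages, were at 0 in both control groups. In cdKO sham Lyz2 alone of these was at 0. In cdKO overload all 3 had counts, while Fcgr1, another marker of the list, was at 0. Over all 12 libraries together Lyz2 had 6 counts, C1qa 2 and C1qb 5, too few to set the groups apart. Lymphocyte markers summed to at most 55.1 CPM. Myofibre markers summed to 72.5 to 117 CPM in control sham, 11.7 to 82.7 in control overload, 54.1 to 143 in cdKO sham and 33.7 to 71.1 in cdKO overload, and 0 of the 2 tested passed with overload. Muscle stem cell and myoblast markers summed to 38.9 to 60.8 CPM in control sham, 72.0 to 96.5 in control overload, 58.3 to 81.2 in cdKO sham and 83.2 to 116 in cdKO overload. Of the 2 tested, 1, Vcam1, rose in each genotype, in cdKO cells not without overload replicate 1 or with thinned counts (adjusted p up to 0.112). The untested Pax7, Myf5, Myod1, Myog and Cdh15 had only 22, 45, 2, 12 and 7 counts in all 12 libraries together. Myod1 was at 0 in both cdKO groups and Cdh15 in cdKO overload, so the sums do not show more muscle stem cells. Erythroid genes summed to 0 to 4.50 CPM in control sham, 12.3 to 281 in control overload, 5.50 to 130 in cdKO sham and 0 to 1.12 in cdKO overload, and of 3 tested 0 passed in control cells and 1, Hba-a2, fell in cdKO cells, a call that was lost in 8 of the 12 fits that left out 1 library (adjusted p up to 0.146). Schwann cell and nerve markers summed to 304 to 537 CPM in control sham, 183 to 281 in control overload, 475 to 560.2 in cdKO sham and 244 to 377 in cdKO overload, and Sox10, which defines Schwann cells, was at 0 in 3 of the 4 groups. Of these 6 markers only 1, Pmp22, was tested, and it fell with overload in each genotype. The untested ones had at most 30 counts each in all 12 libraries together, so the sums follow Pmp22. The part of any of these lists in the changes of the 6 genes was not tested.

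**Figure D4:**
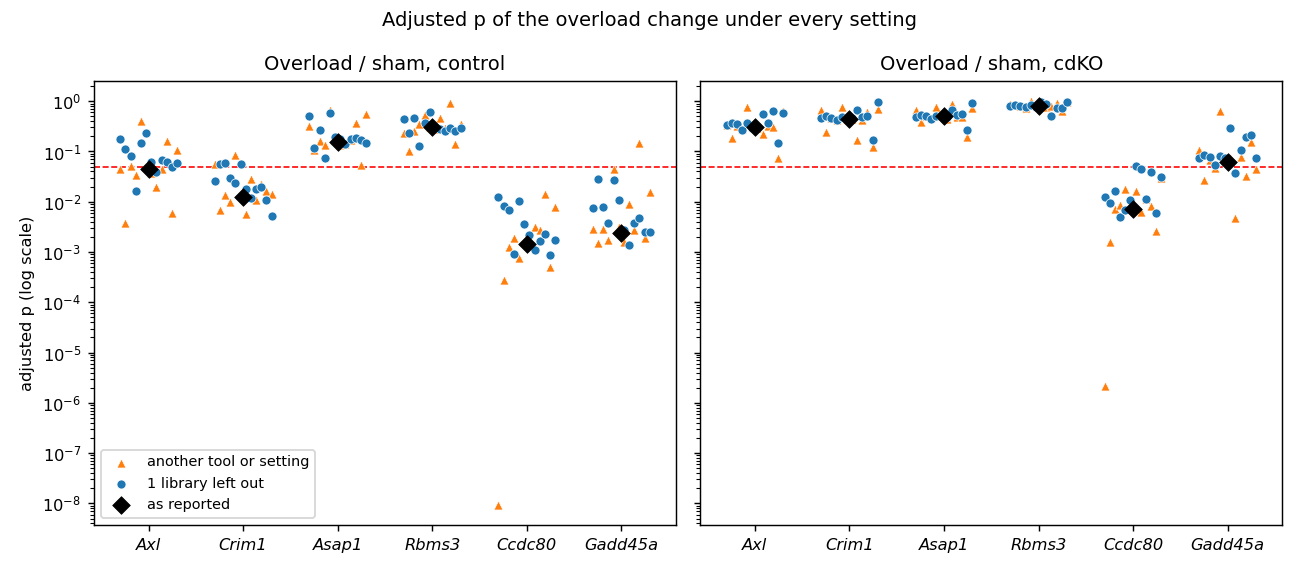
Adjusted p (log axis) of the overload difference of each gene in control (left) and cdKO cells (right). Diamonds are the values as reported, circles the 12 fits that each left out 1 library and triangles the 12 other tools or settings, with the threshold of 0.05 as a dashed line. All marks of Ccdc80 in control cells lie under the line, whereas those of Axl fall on both sides of it.

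The 6 genes did not all follow 1 pattern over the 12 libraries. Pairs were compared by the root mean square difference of their log2 CPM, each gene first centred on its own mean. Axl and Asap1 were the nearest pair (0.369), followed by Crim1 and Asap1 (0.463), and Crim1 and Ccdc80 the farthest (1.07). The gene nearest to each of the 6 among 7733 others was Pdgfrl for Axl (0.165), Msx1 for Crim1 (0.248), Svil for Asap1 (0.159), Lsm14a for Rbms3 (0.163), Maged2 for Ccdc80 (0.166) and Pkia for Gadd45a (0.167). The median gene lay at 0.615, 0.757, 0.622, 0.546, 0.720 and 0.700 from them in the same order. Next in likeness were Kdm6b and Nlgn2 for Axl, Gulp1 and Hadh for Crim1, Syne2 and Spag9 for Asap1, Rab1b and Mier1 for Rbms3, Sparc and Bgn for Ccdc80, and Ppt1 and Poglut3 for Gadd45a. Every one of the 6 had at least 3 genes nearer to it than any of the other 5. With 7733 genes set against 5 this outcome was likely beforehand, and no conclusion is drawn from it. The nearest 5% of those genes lay within 0.344 of Axl, 0.467 of Crim1 and 0.365 of Asap1. Asap1 was thus within that distance of Crim1, and Axl lay just outside it from Crim1 (0.476) and from Asap1 (0.369). These distances describe the 12 libraries, which share their depth and the load difference, and were not tested.

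The 3 nearest genes of Ccdc80 had higher means in both overloaded groups than in both sham groups. For Maged2 the means were 35.2 CPM in control sham, 46.4 in cdKO sham, 75.0 in control overload and 80.4 in cdKO overload. Sparc had means of 3560, 4261, 8761 and 8168 CPM and Bgn of 671, 942, 1592 and 1614 CPM in control sham, cdKO sham, control overload and cdKO overload. For Gadd45a, the nearest gene Pkia had means of 31.8, 42.5, 14.2 and 22.1 CPM in that order, beside 186, 216, 86.8 and 133 CPM for Gadd45a itself. Crim1 and Msx1 were both lowest in control overload, at 21.0 and 14.4 CPM.

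**Figure D5:**
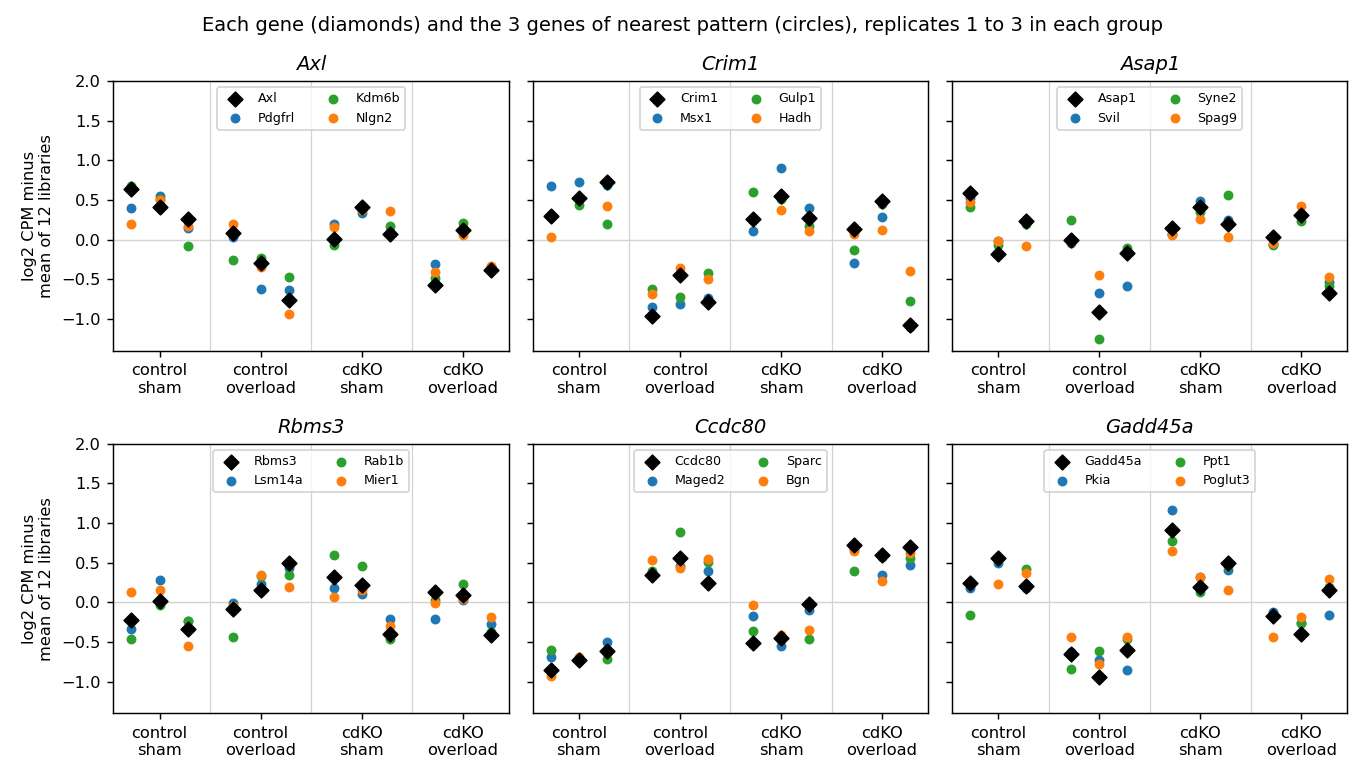
Log2 CPM minus the gene's mean over the 12 libraries, for each of the 6 genes (black diamonds) and its 3 nearest genes (coloured circles). Libraries are ordered by group, with replicates 1 to 3 in each. Values of Ccdc80 and of Maged2, Sparc and Bgn are above 0 in the overloaded groups and below 0 in the sham groups. The means of Rbms3 and its neighbours are higher with overload in control cells and lower in cdKO cells, with libraries that overlap.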

How the data were processed

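RNA was counted in 12 libraries of sorted mouse progenitors, 3 in each of 4 groups. The authors deposited raw counts, one whole number per gene and library. Trim Galore 0.6.6, HISAT2 2.2.1, featureCounts 2.0.1, DESeq2 1.26.0 and the build GRCm38 are named per the submitters' processing notes. For the annotation release, the strand setting and molecular identifiers nothing is stated in the sources used here. Gene positions came from the GRCm38 annotation, in which 54100 of 54100 identifiers were found. The labels set the groups, and 0 columns were left out. Floors of 3 counts hold for counting error alone, because reads need not be separate molecules. Libraries of a group differed beyond sampling noise (chi-square over its degrees of freedom 3.22 to 19.2) and each was counted as 1 library, although reads that need not be separate molecules leave this check unable to tell repeat preparations from separate samples.

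The deposited counts were tested with edgeR 4.0.16 (R 4.3.3): filterByExpr, TMM factors and a robust quasi-likelihood fit to all 12 libraries with 4 group means. Genes pass at an adjusted p under 0.05 (Benjamini-Hochberg, 8161 genes, two-sided). The standard error is the size of the log2 fold change over the root of F. CPM use the TMM-scaled total of tested genes. Nearest patterns used log2 CPM with a prior count of 2.

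The 6 genes and all gene lists were chosen with earlier results of these data known. Named genes are the 6, then Yap1, Wwtr1 and Pdgfra, up to 4 tested genes of smallest p in each list and the 3 nearest in pattern to each of the 6 (predicted genes and pseudogenes left out). Some of the genes so chosen are not named. Fez2 and E230016M11Rik are named because they overlap members, and some marker genes because they were at 0. Alternatives were DESeq2 1.42.0, voom with quality weights (limma 3.58.1), other size factors, a non-robust fit, all genes kept whatever their counts, thinned counts, only the groups compared, a replicate block and each library left out. Chosen after seeing the data were the Y-linked level as a covariate, and leaving out the 2 overloaded libraries nearest to sham or the 2 deepest libraries. The labels do not say whether replicate numbers pair libraries of different groups, and the main fit did not use them as pairs. Figures were drawn with matplotlib 3.10.9.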

Additional observations from a re-analysis of the deposited data

How the results depend on the processing

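Of 852 values of the 6 genes under other settings, 826 kept their side of the threshold and, where they had passed, their direction, 20 lost a call and 6 gained one, and 0 that had passed reversed. Most of the 852 belong to genotype and interaction results far from the threshold, so the number kept does not measure how firm the calls were. The overload calls in control cells held under 11 of 24 other settings for Axl, 19 for Crim1, 23 for Gadd45a and 24 for Ccdc80. In cdKO cells the call of Ccdc80 held under 23 of 24. The number of the 6 genes that passed with overload in control cells went from 4 to 2 with no filter on low counts and to 2 with the Y-linked level as a covariate, and ranged from 2 to 4 when 1 library was left out (2 without control sham replicate 2 or 3 or control overload replicate 3). In cdKO cells it went from 1 to 2 with voom, upper-quartile factors, thinned counts, the Y-linked covariate or the 2 deepest libraries left out, and ranged from 0 to 2 when 1 library was left out (0 without cdKO sham replicate 1, 2 without cdKO sham replicate 2). Between genotypes and for the interaction it was 0 under every setting run. Over all genes, the count for overload in control cells went from 1768 to 766 with the Y-linked covariate (1060 to 2508 when 1 library was left out, lowest without control overload replicate 2), and in cdKO cells from 1065 to 702 with no filter (423 to 1287, with 423, 473 and 551 without cdKO overload replicate 3, cdKO overload replicate 1 and cdKO sham replicate 2). For cdKO against control in sham muscle it went from 1 to 2 with DESeq2, voom, only the groups compared or 2 overloaded libraries left out, and to 0 with thinned counts (0 to 1 when 1 library was left out, 0 without replicate 1 or 3 of either sham group). In overloaded muscle it went from 3 to 1 with DESeq2, only the groups compared, thinned counts or the Y-linked covariate, to 17 with no filter and to 21 without the 2 overloaded libraries nearest to sham (1 to 34, with 34 without control overload replicate 1, 5 without cdKO sham replicate 2 and 1 without control or cdKO overload replicate 3). Over both loads it went from 1 to 2 with DESeq2, voom or thinned counts and to 4 with no filter (1 to 2, 2 without control sham replicate 1). For the interaction it went from 0 to 1 with DESeq2, 10 with no filter and 4 without those 2 overloaded libraries (0 to 1, 1 without control sham replicate 1 or cdKO overload replicate 2). The cause of these shifts was not tested. With other size factors, the median log2 difference over all genes moved by 0.04 at most. Crim1, with 10 to 52 counts per library, is the gene that depth limits most.

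The replicate number as a block left 4 of the 6 genes past the threshold with overload in control cells (1752 of all genes) and 1 in cdKO cells (1035 of all genes), and 0 of the 6 between genotypes and for the interaction, where it called 1, 3, 1 and 0 of all genes. Libraries with the same number did not deviate together throughout: of 18 such pairs 6 had a correlation over 0.1 (range -0.228 to 0.268), and 5 of 12 libraries were most like one of their own number. Both ends of that range came from libraries numbered 2: control overload with cdKO sham (0.268) and control overload with cdKO overload (-0.228). Such correlations cannot exclude a pairing, and the labels do not say what the numbers mean.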
